A study of Mus musculus with 6 samples.

Results

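The plasma proteins of the acute phase were examined through 10 genes, namely Orm1, Orm2, Hp, Hpx, Saa3, Ahsg, Apoa1, Trf, Fgg and Cp. Every probe that carried one of these symbols was taken, which gave 14 of 25697 probes on the array and 10 of 18138 symbols. Orm1 and Orm2 were chosen by their large rises in these same arrays, so their values are a description and carry no test. Lung RNA came from male mice of the FVB strain (FVB/N in the study's methods) at postnatal day 6, with 3 hSRY-OFF and 3 hSRY-ON mice and 1 Illumina MouseRef-8 BeadChip per mouse. The hSRY-ON mice carried 1 copy of a human SRY transgene at the H11 site, driven throughout the body by the CAG promoter, after Cre recombinase from the oocytes of Ddx4-Cre mothers had recombined it in the zygote. The hSRY-ON mice used for arrays did not themselves inherit Ddx4-Cre. By its label an hSRY-OFF mouse carries the unrecombined transgene, and the study also uses littermates without it as controls, so the genotype of the 3 hSRY-OFF mice rests on the label.

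The acute-phase response is a change in the proteins of blood plasma that follows infection or injury. It is best known from hepatocytes, where interleukin 6, interleukin 1 and glucocorticoids act through STAT3, NF-kB, C/EBP factors and the glucocorticoid receptor. Airway epithelium, macrophages, neutrophils and fat can make some of the same proteins. Among the genes examined here, the orosomucoids, haptoglobin, hemopexin, serum amyloid A3, the fibrinogen chain and ceruloplasmin are usually raised in mice during this response, while fetuin A, apolipoprotein A-I and transferrin are commonly lowered.

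Apart from the orosomucoids, 8 genes had 12 probes, of which 10 passed the detection filter (3 or more of the 6 arrays with a detection p below 0.05). Of these 10 probes, 9 were higher in hSRY-ON lungs by limma at an adjusted p under 0.05, and they covered 7 of the 8 genes. Leaving out any 1 hSRY-OFF array reduced the 9 calls to 5, with Saa3, Apoa1, Trf and Cp lost. Over all 13841 probes tested, 26.9% were called, 13.6% as higher and 13.3% as lower. None of the 10 was called lower by limma, and none was lower at an unadjusted p under 0.05. The exception among the 8 genes was Fgg, whose limma adjusted p was 0.0588. All 12 tested probes had normalized values that were higher in hSRY-ON without overlap, as did 22.4% of all probes (46.6% in either direction). Nothing is read from this count, since it holds Orm1 and Orm2, which were chosen for their rises, and since 4 of the 12 (Orm1, Orm2, Ahsg and Apoa1) were detected on at most 1 hSRY-OFF array and passed the filter through their hSRY-ON level. The 9 calls likewise hold Ahsg and Apoa1. The RNA was from whole lung, in which a larger share of a cell type and more RNA per cell cannot be told apart.

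**Figure D1:**
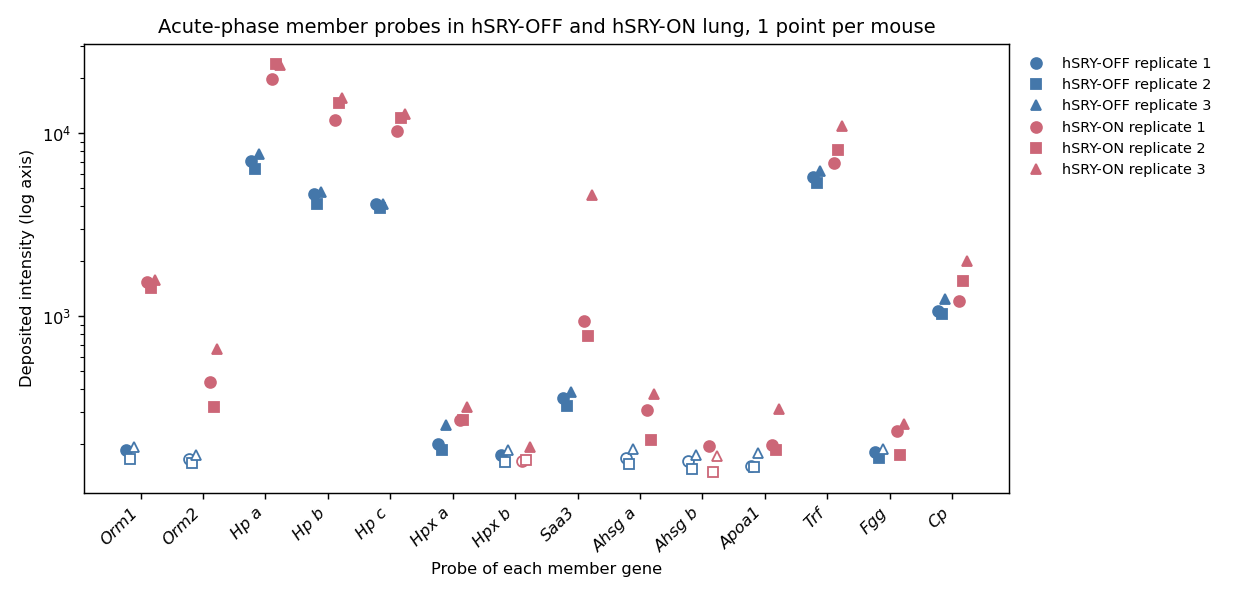
Deposited intensity of each of the 14 probes (log axis) in 3 hSRY-OFF mice (blue) and 3 hSRY-ON mice (red), 1 point per mouse, with open points where the detection p was 0.05 or more. Hp a, b and c are ILMN_2944824, ILMN_2668510 and ILMN_2668509, Hpx a and b are ILMN_2744565 and ILMN_2830333, and Ahsg a and b are ILMN_2764036 and ILMN_2993745. The hSRY-ON points of Orm1 lie between 1427 and 1580 and those of hSRY-OFF between 167 and 193, while Saa3 has 1 hSRY-ON mouse at 4614 and the other two at 943 and 783.

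Orm1 and Orm2 encode orosomucoids (alpha-1-acid glycoproteins), abundant plasma proteins that bind lipophilic molecules and drugs. The Orm1 probe (ILMN_1226935) had deposited intensities of 186, 167 and 193 in the 3 hSRY-OFF mice and of 1545, 1427 and 1580 in the 3 hSRY-ON mice. The hSRY-ON mice were close to each other and far above every hSRY-OFF mouse, of which only 1 had a detected signal. On the background-corrected and normalized log2 scale, the hSRY-OFF mean was 5.38 ± 0.19 (SD, n = 3), the hSRY-ON mean was 10.46 ± 0.14 (SD, n = 3) and the difference was 5.08, or 33.9-fold. Of the fitted differences in this setting, the next above was Nppa (5.55) and the next below Guca2a (4.70). The size of this difference depended on the background, since it was 7.98-fold without background correction.

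Orm2 was present at a signal above background in the hSRY-ON group alone. Its probe (ILMN_2591264) read 167, 158 and 175 in hSRY-OFF, detected on 0 of 3 arrays, and 435, 321 and 664 in hSRY-ON, detected on 3 of 3. Replicate 3 was the highest and replicate 2 the lowest of the hSRY-ON mice. On the background-corrected scale the hSRY-ON mean was at least 8.34-fold higher. This sets it against the dimmest detected signal of each hSRY-OFF array, or the probe's own value where that was higher. The fitted log2 difference was 3.40, with a mean of 8.35 ± 0.63 (SD, n = 3) in hSRY-ON. Without background correction the log2 difference was 1.43 (2.70-fold), so the bound of 8.34 holds only after that correction. Orm1, Orm3 and Orm2 lie side by side on chromosome 4, and the Orm3 probe was not detected on any of the 6 arrays. The orosomucoid genes are close paralogs, and cross-hybridisation between their transcripts was not tested.

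The genes outside the 10 whose pattern over the 6 arrays was most like that of Orm1 were Guca2a, Gpnmb, Gdpd2, AI593442 and Scgb3a1. After each profile was set to 0 at its hSRY-OFF mean, these differed from Orm1 by a mean absolute log2 difference of 0.38, 0.55, 0.61, 0.78 and 0.81 over 6 arrays. Guca2a (guanylin, a peptide that activates guanylyl cyclase C) had hSRY-OFF values of 6.22, 6.07 and 6.90 and hSRY-ON values of 11.41, 11.27 and 10.62 on the log2 scale. This likeness was found in the same arrays that had chosen Orm1, so it is a description only.

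Promoters of 7 of the 10 genes were found in the RefSeq promoter table (GRCm38.p6), each holding 250 bases before and 50 after an annotated start, with 2 entries for Cp and 8 entries in all. Orm1, Hp and Trf had no entry. The promoters of Orm2, Saa3 and Ahsg are shown because these genes had the largest differences among the genes with an entry, and because the letters of motifs of acute-phase regulators stand in them. Capitals mark a C/EBP core, TTGCNNAA or its reverse complement TTNNGCAA, or a glucocorticoid receptor hexamer, AGAACA or its reverse complement TGTTCT. The Orm2 sequence is chr4:63362199-63362498 on the plus strand, the Saa3 sequence is chr7:46715627-46715926 on the minus strand, and the Ahsg sequence is chr16:22891765-22892064 on the plus strand, each written 5′ to 3′ along the gene.
Orm2: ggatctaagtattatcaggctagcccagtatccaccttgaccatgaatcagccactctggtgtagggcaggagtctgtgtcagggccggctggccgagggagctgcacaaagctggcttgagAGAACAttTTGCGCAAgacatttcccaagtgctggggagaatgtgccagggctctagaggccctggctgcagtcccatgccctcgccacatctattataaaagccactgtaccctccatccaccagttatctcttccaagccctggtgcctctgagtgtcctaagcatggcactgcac
Saa3: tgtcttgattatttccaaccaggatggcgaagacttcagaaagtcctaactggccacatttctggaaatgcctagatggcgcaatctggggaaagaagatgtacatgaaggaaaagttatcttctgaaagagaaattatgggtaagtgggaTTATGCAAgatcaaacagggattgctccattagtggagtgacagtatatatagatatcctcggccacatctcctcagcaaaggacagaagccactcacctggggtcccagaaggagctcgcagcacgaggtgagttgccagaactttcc
Ahsg: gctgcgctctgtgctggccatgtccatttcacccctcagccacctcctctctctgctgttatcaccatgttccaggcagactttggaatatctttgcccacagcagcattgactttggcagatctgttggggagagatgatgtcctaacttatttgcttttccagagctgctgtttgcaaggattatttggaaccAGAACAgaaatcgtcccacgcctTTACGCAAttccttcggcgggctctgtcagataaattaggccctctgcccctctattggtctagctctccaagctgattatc

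In the Orm2 promoter the glucocorticoid receptor hexamer spanned positions -128 to -123 from the start and the C/EBP core TTGCGCAA spanned -120 to -113, with 2 bases between them. The Ahsg promoter held the same pair, the hexamer at -55 to -50 and TTACGCAA at -32 to -25, 17 bases apart. Saa3 had a C/EBP core, TTATGCAA, at -99 to -92 and no hexamer. Of the 8 entries, 5 held a C/EBP core and 4 held the hexamer, while 10.8% and 19% of all 32851 promoters of this length held them. No entry of the 8 held TTCNNNGAA (STAT, 8.3% of all promoters) or the NF-kB motif (5.56%). Both strands were searched, and no match overlapped another in these entries. A match of letters does not show that a factor binds there, and the arrays did not measure binding.

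Haptoglobin, which captures free hemoglobin, rose by a similar amount on each of its 3 probes. Its probe ILMN_2944824 read 7066, 6339 and 7687 in hSRY-OFF and 19759, 23776 and 23573 in hSRY-ON. The lowest hSRY-ON mouse was thus well above the highest hSRY-OFF mouse. The log2 mean rose from 12.78 ± 0.07 (SD, n = 3) to 14.41 ± 0.09 (SD, n = 3), which is a difference of 1.63 (SE 0.11, limma adjusted p = 0.000603) and a fold of 3.09. The other 2 probes, ILMN_2668510 and ILMN_2668509, gave log2 differences of 1.60 (SE 0.13, limma adjusted p = 0.000887) and 1.54 (SE 0.13, limma adjusted p = 0.000928). All 3 Hp probes stayed called under each of the 17 alternatives, and without background correction they were 3.05-fold, 2.97-fold and 2.83-fold higher.

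Hemopexin, the plasma carrier of free heme, was dim. Probe ILMN_2744565 read 201, 185 and 254 in hSRY-OFF and 271, 271 and 320 in hSRY-ON, with all 6 arrays detected. The highest hSRY-OFF mouse came near the 2 lower hSRY-ON mice before normalization. After it the log2 mean rose from 6.07 ± 0.35 (SD, n = 3) to 7.31 ± 0.13 (SD, n = 3), a difference of 1.24 (SE 0.19, limma adjusted p = 0.00579), which was 0.49 without background correction. The second Hpx probe, ILMN_2830333, was detected on 1 array of each group, was not tested and overlapped between groups, with a log2 difference of 0.08. The probes of Hpx therefore differed in whether they gave a signal.

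Transferrin and ceruloplasmin, which carry iron and copper in plasma, had probes detected on all 6 arrays and small changes. Trf and Cp had the lowest log2 differences of the tested probes after background correction, but without it Fgg (0.32), Hpx (0.49) and Apoa1 (0.49) were lower than Trf (0.52) and Cp (0.54). Trf (ILMN_2485323) read 5795, 5363 and 6185 in hSRY-OFF and 6870, 8057 and 10970 in hSRY-ON. Its log2 mean rose from 12.47 ± 0.08 (SD, n = 3) to 13.00 ± 0.26 (SD, n = 3), a difference of 0.53 (SE 0.16, limma adjusted p = 0.0436). Replicate 3 was the highest, and without it the difference was 0.38 (limma adjusted p = 0.0645). The Trf call was also lost when any 1 hSRY-OFF mouse was left out (limma adjusted p from 0.112 to 0.129), when hSRY-ON replicate 2 was left out (0.0785) and with no filter (0.0561). Cp (ILMN_3083163) read 1068, 1030 and 1242 in hSRY-OFF and 1213, 1561 and 2000 in hSRY-ON, so that hSRY-ON replicate 1 lay within the hSRY-OFF range as deposited. On the normalized scale the groups did not overlap. The log2 mean rose from 9.89 ± 0.04 (SD, n = 3) to 10.50 ± 0.25 (SD, n = 3), by 0.61 (SE 0.15, limma adjusted p = 0.0254). The Cp call was lost without any 1 hSRY-OFF array (limma adjusted p from 0.0791 to 0.0887) or without hSRY-ON replicate 2 (0.0627).

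**Figure D2:**
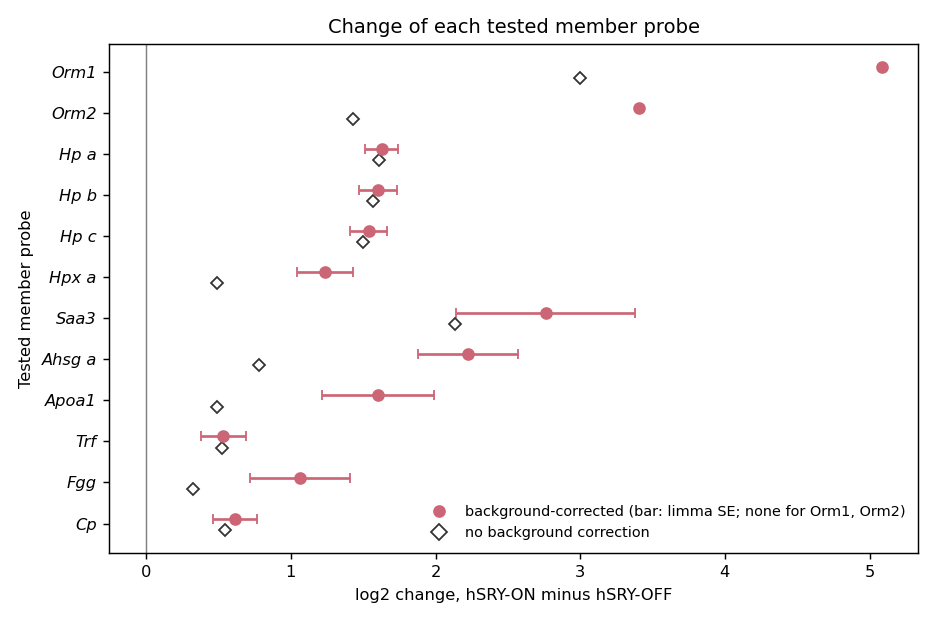
Log2 difference, hSRY-ON minus hSRY-OFF, of each of the 12 tested probes after background correction (red, with the limma SE as bars, not shown for Orm1 and Orm2) and without it (open diamonds), from 3 mice a group. Probes a, b and c of Hp, Hpx and Ahsg are named as in the plot of intensities by mouse. The Hp probes moved little between the settings (1.63 against 1.61 for Hp a), while Orm2 went from 3.40 to 1.43 and Apoa1 from 1.60 to 0.49.

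Serum amyloid A3, an inflammation-induced apolipoprotein that is made outside the liver, was the most variable of the 10 genes. Its probe (ILMN_2772632) read 356, 323 and 388 in hSRY-OFF and 943, 783 and 4614 in hSRY-ON. Every hSRY-ON mouse was above every hSRY-OFF mouse, and replicate 3 stood far above the other 2. The log2 mean rose from 7.66 ± 0.05 (SD, n = 3) to 10.42 ± 1.41 (SD, n = 3), a difference of 2.76 (SE 0.62, limma adjusted p = 0.0184). Without replicate 3 the log2 difference was 1.95 with a limma adjusted p of 0.00132. Leaving out 1 hSRY-OFF array ended the call whichever was left out, at limma adjusted p from 0.0585 to 0.0655. Its chromosome 7 neighbours did not follow it. Saa4 was not detected on any array, and Saa1 differed by 0.23 on the log2 scale (limma adjusted p = 0.297).

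Apolipoprotein A-I, the main protein of high-density lipoprotein, had a signal close to background. Its probe (ILMN_2623393) read 153, 150 and 179 in hSRY-OFF, detected on 0 of 3 arrays, and 198, 186 and 310 in hSRY-ON, detected on 3 of 3. The highest hSRY-OFF value was only slightly below the lowest hSRY-ON value. On the background-corrected scale the hSRY-ON mean was at least 2.15-fold higher, with log2 means of 4.79 ± 0.13 (SD, n = 3) and 6.40 ± 0.85 (SD, n = 3). The fitted log2 difference was 1.60 (limma adjusted p = 0.0237). It was 0.49 (1.41-fold) without background correction, so the bound does not hold there. Without replicate 3 the difference was 1.11, and too few arrays were detected for a test. The call was lost without any 1 hSRY-OFF array (limma adjusted p from 0.0623 to 0.0835). Apoc3, next to Apoa1 on chromosome 9, was detected on no array.

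Fetuin A (Ahsg), a liver glycoprotein that binds calcium phosphate and restrains mineralisation, was detected in hSRY-ON lungs only. Probe ILMN_2764036 read 168, 156 and 189 in hSRY-OFF and 308, 211 and 378 in hSRY-ON. Replicate 2 was the lowest of the hSRY-ON mice. On the background-corrected scale the hSRY-ON mean was at least 3.98-fold higher, with log2 means of 5.06 ± 0.14 (SD, n = 3) and 7.29 ± 0.75 (SD, n = 3). The fitted log2 difference was 2.23 (limma adjusted p = 0.00575). It was 0.78 (1.72-fold) without background correction, so the bound does not hold there. The second Ahsg probe, ILMN_2993745, was detected on 1 hSRY-ON array, replicate 1, and on no hSRY-OFF array, and it was not tested. Its groups overlapped.

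Fgg encodes the gamma chain of fibrinogen, the precursor of fibrin in blood clots. Its probe (ILMN_2832105) read 181, 168 and 189 in hSRY-OFF and 236, 175 and 257 in hSRY-ON. As with Ahsg, replicate 2 was the lowest hSRY-ON mouse, and as deposited it lay within the hSRY-OFF range. The log2 means were 5.30 ± 0.13 (SD, n = 3) and 6.36 ± 0.75 (SD, n = 3), a difference of 1.06 (SE 0.34, limma adjusted p = 0.0588). Without hSRY-ON replicate 2 the difference was 1.51 with a limma adjusted p of 0.00429, and it also passed under median scaling (0.0427), cyclic loess (0.0483), a variance trend with robust estimation (0.0447) and array weights (0.0494). The other 2 fibrinogen chains lie beside Fgg on chromosome 3. Fga had a detected signal in all 3 hSRY-ON mice and in none of the hSRY-OFF mice. On the background-corrected scale Fga was at least 3.30-fold higher in hSRY-ON, with a fitted log2 difference of 2.22 (limma adjusted p = 0.00675). Its hSRY-ON log2 values were 7.48, 6.09 and 7.48. Fgb was detected on no array.

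The 3 hSRY-ON mice did not hold the same rank throughout. Of the 12 tested probes, 9 were highest on replicate 3, 2 on replicate 2 and 1 on replicate 1, whereas over all tested probes the shares were 34.6%, 33.7% and 31.7%. Replicate 2 was the lowest hSRY-ON mouse for 6 of the 12. The SD was larger in hSRY-ON for 9 of the 12 probes, as it was for 73.6% of all probes. Orm1 and the 3 Hp probes had similar values in the 3 mice, Saa3 and Apoa1 were set apart by replicate 3, and Ahsg and Fgg were low in replicate 2.

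**Figure D3:**
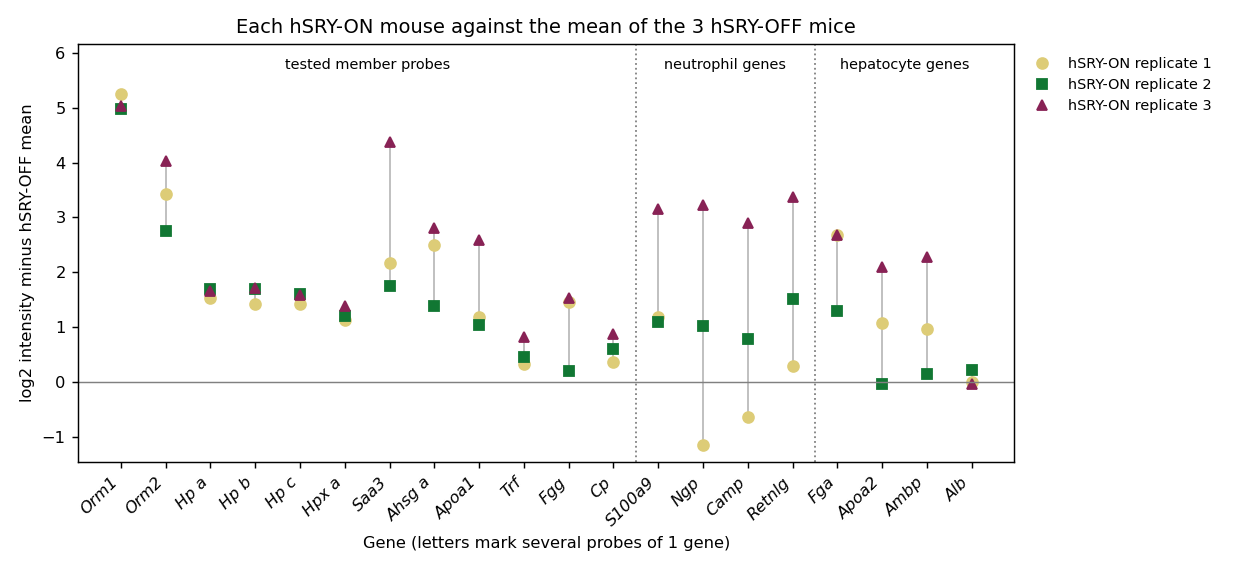
Log2 intensity of each of the 3 hSRY-ON mice minus the mean of the 3 hSRY-OFF mice, for the 12 tested probes, 4 neutrophil genes and 4 hepatocyte genes. The marker genes were picked from 12 neutrophil and 18 hepatocyte markers after their values were seen, and do not stand for their lists. Of the 18, 10 were detected on no array. Of the 6 tested, 4 were not called and 1 (Vtn, not plotted) was called lower, as were 12.9% of all genes tested. Grey lines join the mice of a gene. Replicate 3 (triangles) was 4.37 above the hSRY-OFF mean for Saa3 and 3.23 for Ngp. Replicate 2 (squares) was the lowest of the 3 for Ahsg a, Fgg, Fga, Apoa2 and Ambp.

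Markers of cell types that can make these proteins differed among the same mice. Over all genes tested, 14.9% were called higher and 12.9% lower by limma, and no such share was taken at the unadjusted threshold. Neutrophil markers (8 of 12 tested, 3 called higher by limma and 4 at an unadjusted p under 0.05, 0 lower at either threshold) had a summed normalized intensity of 5249 to 5975 in hSRY-OFF and of 9211, 14055 and 35231 in hSRY-ON replicates 1, 2 and 3. In replicates 2 and 3 all 8 tested markers were above their hSRY-OFF means. In replicate 1, 5 were above and 3 below, from -1.14 (Ngp) to 1.40 (Ltf) on the log2 scale. Elane, Cxcr2 and Mmp8 were detected on no array. Macrophage markers (8 of 10 tested, 6 called higher by limma and 6 at an unadjusted p under 0.05, 0 lower at either) summed to 24813 to 26965 in hSRY-OFF and 35641, 43936 and 36402 in hSRY-ON, with Siglecf and Itgax detected on no array. Airway secretory markers (4 of 8 tested, 2 called higher by limma and 3 at an unadjusted p under 0.05, 0 lower at either) summed to 52138 to 54217 and to 77554, 73448 and 63750, with Bpifa1 and Reg3g detected on no array. The 2 called were Scgb3a1 and Cyp2f2, while Scgb1a1 differed by 0.01 on the log2 scale (limma adjusted p = 0.972). The part of these cells in the values of the 10 genes was not tested.

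For hepatocyte markers, 10 of 18 were detected on no array, among them Alb, the gene of albumin, and Afp, Cps1 and Tat. Of 6 tested, 1 (Fga) was called higher and 1 (Vtn) lower, where 14.9% and 12.9% of all genes were higher and lower. The summed intensity was 745 to 824 in hSRY-OFF and 898, 619 and 1194 in hSRY-ON. Apoa2 and Ambp were detected on hSRY-ON replicates 1 and 3 and on no other array. Ahsg, Fgg and Fga were also higher in replicates 1 and 3 than in replicate 2. So were Orm1, Orm2, Saa3 and Apoa1, while Hp, Hpx, Trf and Cp were lowest in replicate 1. Orm1 differed little between replicates 2 and 3 (10.36 and 10.40 on the log2 scale). The order was thus seen in genes on and off the hepatocyte list, and its source was not tested. None of 6 adipocyte markers could be tested, and their sum was 162 to 205 in hSRY-OFF and 174 to 192 in hSRY-ON, with Plin1, Lep, Retn and Cidec detected on no array. The 8 lung defining markers were all detected on 6 of 6 arrays, with 2 higher (Sftpb and Sftpd) and 1 lower (Cdh5), beside the same shares of all genes. Their part in the results was not tested.

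Most tested genes of a list of other proteins that rise in the acute phase were higher in hSRY-ON. Among the 10 genes, those commonly lowered in this response, Ahsg (2.23), Apoa1 (1.60) and Trf (0.53), were also called higher, against that direction. Of a list of 21 genes, 12 were tested and 10 were called higher by limma, with 0 lower at the adjusted threshold and 0 at an unadjusted p under 0.05, and the count was between 8 and 10 when each array was left out. Over the 10292 genes tested, by the brightest probe of each, 14.9% were called higher and 12.9% lower. The median log2 difference of the 12 was 1.26, against -0.01 over all genes. The list was drawn up with earlier results of these arrays known, and Fga was detected in hSRY-ON only and so passed the filter through that group, so these shares describe the list and are no independent evidence of its direction. Il1rn, the interleukin 1 receptor antagonist, rose by 1.83 on the log2 scale (SE 0.18, limma adjusted p = 0.00146), and Serpina3n, a protease inhibitor, rose by 2.17 (SE 0.22, limma adjusted p = 0.00147). The complement regulator Serping1 rose by 0.99 (SE 0.12, limma adjusted p = 0.00281) and the complement component C3 by 1.21 (SE 0.15, limma adjusted p = 0.00301). The other genes called were Lcn2, Itih3, Itih4, Lbp, Lrg1 and Fga, while Saa1 and Mbl1 were tested and not called. The remaining 9, which include the classical liver proteins Crp, Apcs, Saa2 and Hamp, were detected on no array. A list of 10 carrier proteins that fall in the acute phase, or are carried in plasma, had no gene past the filter. Of these, 8 were detected on no array, while Apoa2 was detected on 2 hSRY-ON arrays and Apom on 1.

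Inducers and signal transducers of the response made up a list of 23 genes, of which 22 were on the array and 15 were tested. By limma, 5 were higher, 1 was lower and 9 were not called, where 14.9% and 12.9% of all genes were higher and lower, and the median log2 difference was 0.57. Il6ra, a receptor chain for interleukin 6, rose by 1.61 (SE 0.28, limma adjusted p = 0.00793) and Osmr, the oncostatin M receptor, by 1.25 (SE 0.20, limma adjusted p = 0.00675). The cytokine gene Il1b rose by 1.19 (SE 0.22, limma adjusted p = 0.0101) and the NF-kB inhibitor gene Nfkbia by 0.90 (SE 0.21, limma adjusted p = 0.0214), and the fifth was Myd88. The Nfkbia call was lost whichever hSRY-OFF array was left out (limma adjusted p from 0.0641 to 0.0810). Nfkb1 was called lower, at -0.39. Il6 was detected on no array, and Stat3 (0.49) and Socs3 (0.18) did not pass the test. Of the factors whose motifs are marked above, Cebpa (0.57, limma adjusted p = 0.0516) and Cebpb (0.41, limma adjusted p = 0.146) did not pass. Cebpd had no probe. Nr3c1, the glucocorticoid receptor gene, was detected on no array by its 1 probe, which does not show that the gene was unexpressed. The count of genes higher was 3 whichever hSRY-OFF array was left out, and 9 when hSRY-ON replicate 1 was left out.

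Receptors and handlers of the iron and heme that Hp, Hpx and Trf carry were tested for 14 of 18 genes, with 4 higher, 1 lower and 9 not called by limma (14.9% and 12.9% of all genes were higher and lower) and a median log2 difference of 0.26. Hmox1, heme oxygenase 1, which breaks down heme, had log2 values of 7.32, 7.47 and 7.65 in hSRY-OFF and of 11.21, 9.66 and 9.28 in hSRY-ON. Its difference was 2.56 (SE 0.46, limma adjusted p = 0.00895), and replicate 1 was the highest. The metal transporter gene Slc11a1 rose by 1.22 (SE 0.26, limma adjusted p = 0.0149), the iron exporter gene Slc40a1 by 0.85 (SE 0.19, limma adjusted p = 0.0187) and the biliverdin reductase gene Blvrb by 0.68 (SE 0.17, limma adjusted p = 0.0256). Heph, a ferroxidase related to ceruloplasmin, was called lower at -0.48. Cd163, the macrophage receptor for haptoglobin bound to hemoglobin, was detected on 1 hSRY-ON array and was not tested, and the transferrin receptor Tfrc (-0.05) did not pass the test. The count of genes higher fell to 1, Hmox1, without hSRY-OFF replicate 1 or 2, with limma adjusted p of 0.0593 to 0.0612 for Slc11a1, 0.0742 to 0.0744 for Slc40a1 and 0.0857 to 0.0896 for Blvrb. Blvrb also lost its call without hSRY-OFF replicate 3 (0.0736) or hSRY-ON replicate 3 (0.0528).

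**Figure D4:**
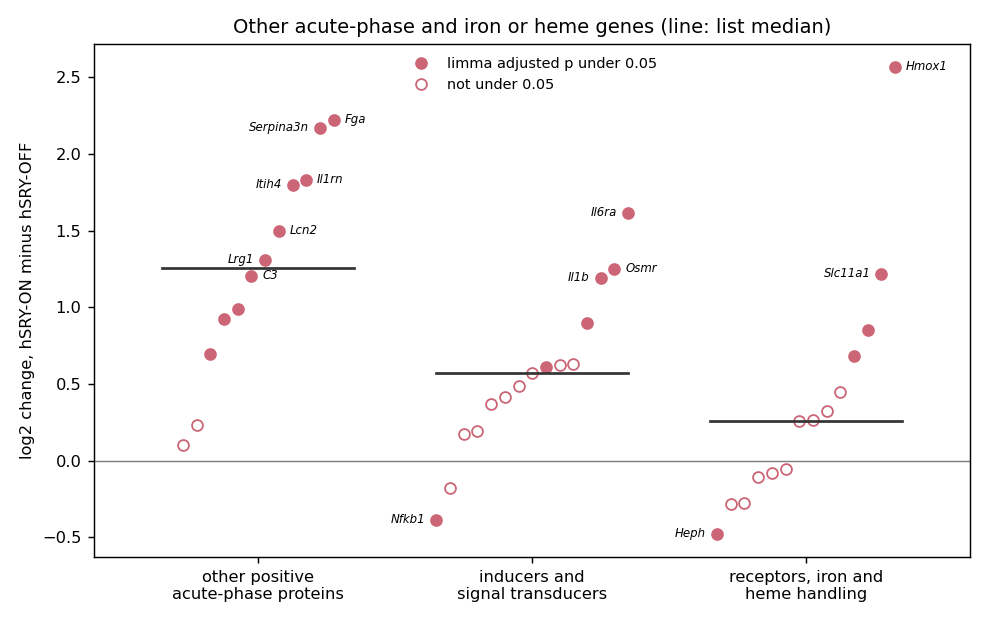
Log2 difference, hSRY-ON minus hSRY-OFF, of the tested genes of 3 related lists, 1 point per gene by its brightest probe, from 3 mice a group. Filled points have a limma adjusted p under 0.05 and lines mark the list medians of 1.26, 0.57 and 0.26. In the list of acute-phase proteins 10 of 12 points are filled, all above 0.

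The genes that flank the 10 on their chromosomes, up to 2 on each side, gave 37 genes outside the 10, of which 16 were tested. Of these, 3 were called higher, 3 lower and 10 were not called, near the shares of all genes (14.9% and 12.9%). Beside Orm1, Col27a1, a collagen chain gene, was lower by limma (log2 difference -0.80, adjusted p = 0.0110). On the far side of Orm2, Akna differed by 0.11 (limma adjusted p = 0.653) and Whrn by 0.79 (limma adjusted p = 0.0188). The neighbours of Hp, Hpx and Trf that were called were Dhodh (-0.40), Trim3 (0.59) and Srprb (-0.45), in that order. Fga, beside Fgg, was the third of those called higher.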

How the data were processed

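The authors deposited, for each probe and array, a bead intensity on a linear scale, neither background-corrected nor normalized, and a detection p-value. Array medians were 177.1 to 204.0, and 13191 to 14134 probes were detected per array at a detection p under 0.05. The number of arrays, 3 a group, limits the precision. The bead summary software is not given in the sources used here. The study's methods name TCC, a count method, while the submitters' processing notes name limma. Since the values are intensities, limma 3.58.1 in R 4.3.3 was used.

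Normexp used the detection p-values to set the background, with an offset of 16, and the log2 of quantile-normalized values was analysed. Quantile normalization removes a shift shared by all probes. Near background the log2 differences depend on the correction. Probes detected on at least 3 of the 6 arrays were tested by lmFit and eBayes over all 6 arrays without covariates, with Benjamini-Hochberg adjustment over 13841 probes and a threshold of 0.05. The script was tested on simulated data. No 2 arrays held identical values. The p-values set each group difference against the spread between these mice, moderated over all tested probes. The labels name separate samples but not litters, so an effect of litter cannot be told apart.

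The 10 genes, the related and marker lists and the motifs were chosen with earlier results of these data known. Every probe of the 10 genes was named, with the 4 genes of smallest adjusted p of each related list (positive acute-phase proteins, negative acute-phase and carrier proteins, inducers and transducers, receptors with iron and heme handling) and the 5 genes most like Orm1; other names were chosen after their values were seen. Lists were counted by the brightest tested probe of a gene. Some genes of the marker lists are not reported here. Summed marker intensities are sums of normalized linear values over those probes. A probe undetected on every array of a group is given as a bound, with no fold where the bound is under 1. Such bounds hold only on the background-corrected and normalized scale. Neighbours and promoters came from RefSeq tables (GRCm38.p6). Alternatives were other background settings, normalizations, filters, variance models and thresholds, the replicate number as a block and leaving out each array.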

Additional observations from a re-analysis of the deposited data

How the results depend on the processing

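No tested probe of the 10 genes changed direction under the 17 alternatives. The 3 Hp probes and Hpx kept their calls under all 17. Ahsg kept its call in the 13 alternatives that tested it. It passed the main filter only through its hSRY-ON level, so its calls are a description. At an adjusted p under 0.01 in limma, 5 of the 9 probes stayed called, with 772 probes higher and 554 lower over the array against 1883 and 1845. With each array left out, 5 to 7 were called (912 to 2052 probes higher and 592 to 2332 lower over the array), the lowest counts coming without an hSRY-OFF array. Ahsg and Apoa1 could not be tested without an hSRY-ON array, because then too few arrays were detected. In the other alternatives 7 to 10 were called higher and 0 lower, with 7 where all 6 arrays had to be detected. Without background correction Orm1 was 7.98-fold and Orm2 2.70-fold higher, so the size of these rises depended on that correction. Nothing is read from their direction, since Orm1 and Orm2 were chosen for their rises in these same arrays. The values did not show that replicate numbers pair the mice, as same-numbered arrays had deviation correlations of -0.11, 0.10 and -0.09. With 3 arrays a group, such correlations cannot exclude a pairing. With the replicate block, 7 of the 10 probes were called higher and 1421 probes higher and 1234 lower in all, and Trf (adjusted p = 0.0907) and Cp (0.0535) lost their calls. The cause of these changes was not tested.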

Other observations

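Vtn, which encodes vitronectin, a plasma and matrix adhesion protein, went the other way from the plasma proteins above. Its log2 values were 7.92, 7.98 and 7.67 in hSRY-OFF and 5.75, 4.71 and 5.83 in hSRY-ON. The difference was -2.42 (SE 0.30, limma adjusted p = 0.00280), and hSRY-ON replicate 2 was the 1 array without a detected signal. Vtn was singled out after its value was seen.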
